A study of Homo sapiens with 10 samples.

Results

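The genes described here are the 10 enzymes that hydroxylate and cross-link collagen: the lysyl oxidases LOX, LOXL1, LOXL2, LOXL3 and LOXL4, the lysyl hydroxylases PLOD1, PLOD2 and PLOD3, and the prolyl 4-hydroxylase alpha subunits P4HA1 and P4HA2. They were taken by gene symbol from the 22626 rows of the deposited read counts, where each of the 10 symbols has 1 row, and all 10 passed the filter on low counts that left 14936 rows for the test. The cells were ARPE-19, an established human line of retinal pigment epithelium (RPE), which lies on a collagen-containing basement membrane in the eye. The control group was cultured for 48 h at 5.5 mM glucose with 32 mM mannitol, a sugar alcohol added for its osmotic effect, and the high glucose (HG) group for 48 h at 37.5 mM glucose, in each case with 5 libraries and in the same serum-containing medium. The labels do not state that the libraries came from separate cultures, so the p-values measure the spread between these libraries. Mannitol was given to the control group alone, so its effect and that of glucose cannot be told apart.

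Collagen chains are modified before and after they leave the cell. In the endoplasmic reticulum, prolyl 4-hydroxylase, built from a P4HA alpha subunit and the P4HB beta subunit, hydroxylates prolines, which stabilises the collagen triple helix, and the PLOD enzymes hydroxylate lysines. Outside the cell, the copper-dependent lysyl oxidases oxidise lysines and hydroxylysines of collagen and elastin, from which the covalent cross-links of the matrix form. The hydroxylases need oxygen, iron, 2-oxoglutarate and ascorbate, and LOX, PLOD2 and P4HA1 are known as genes that hypoxia induces.

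In the HG group, LOXL2 and LOXL1 fell by about the same amount and PLOD3 rose, while the other 7 genes did not pass the test. These 3 calls of 10 genes rested on edgeR's quasi-likelihood test with an adjusted p (Benjamini-Hochberg, over all rows tested) under 0.05, which 15.4% of all rows tested passed, 7.62% higher and 7.80% lower. The median log2 fold change was -0.21 over the 10 genes and 0.0013 over all rows. The study's limit for a changed gene, a fold change above 1.5 with an unadjusted p under 0.05, was met by 0 of the 10 genes in edgeR and 0 in DESeq2. Of all rows, 772 (5.17%) met it in edgeR and 908 in DESeq2. At an unadjusted p under 0.05 alone, 3 of the 10 genes passed in edgeR, against 28.5% of all rows. LOXL1 met the study's limit without HG_1, control replicate 3 or control replicate 4, each left out on its own, where 849, 805 and 795 rows met it. It also did so without control replicate 2 and HG_1 together (812 rows) and with 1 surrogate variable (788 rows). The same 3 genes passed at an adjusted p under 0.05 in DESeq2 (19.9% of all rows), in limma on log2(FPKM + 0.1) (13.4%) and without the pair of libraries that stood apart (27.1%), and LOX and PLOD2 joined them with the surrogate variable (33.0%).

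**Figure D1:**
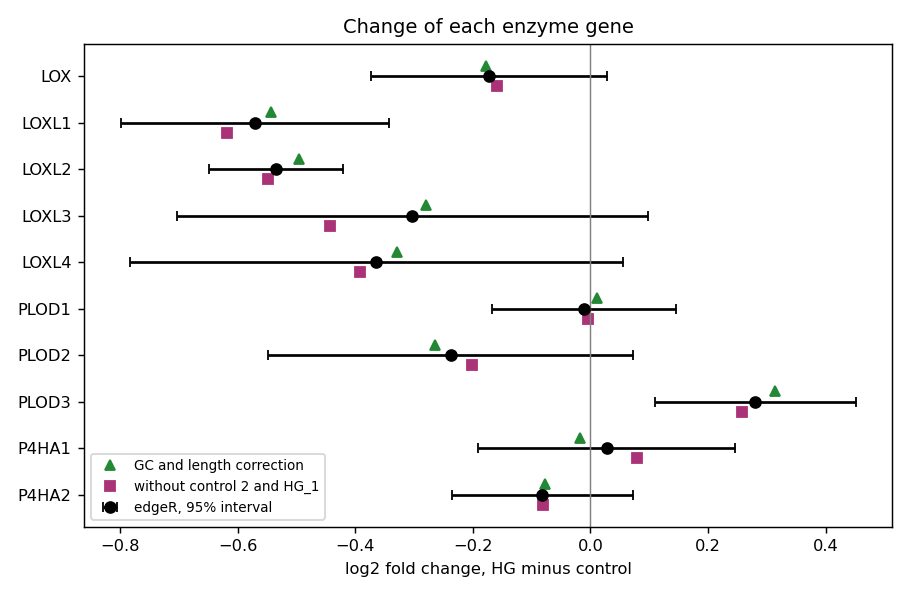
Log2 fold change (horizontal axis, HG minus control) of the 10 genes, with black points and bars for edgeR and its 95% interval (n = 5 and 5 libraries), triangles for edgeR after correction for transcript GC content and length, and squares for edgeR without control replicate 2 and HG_1. The intervals of LOXL1, LOXL2 and PLOD3 do not reach 0.

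Total counts were between 32448991 and 45864176 per library. TXNIP, which glucose induces, was at 5.38 CPM (counts scaled to the normalized library size) or more in every HG library and at 1.23 or less in every control library, as the labels state. The labels give no batch, but control replicate 2 and HG_1 (HG libraries are named here by their deposited column) stood apart from the other 8 libraries on the second principal component, which held 14.9% of the variance. In both, counts rose with the GC content of the transcript, with slopes of 0.171 and 0.189 log2 units per 10 points of GC, against values between -0.0889 and -0.0047 in the other 8. Values that rest on this pair are given with and without it.

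The cells were checked against markers. Of 17 RPE markers 11 were tested and 3 passed in edgeR, all lower (PMEL, KRT8 and KRT18), where 7.80% of all rows tested were lower and 7.62% higher. The visual cycle gene RPE65 had between 0 and 6 counts and RGR and TTR had 0, so that these defining markers were at or near 0, while MITF and OTX2 were at 57.8 and 96.2 CPM in the control group. BEST1 ranged from 24 to 18223 counts between libraries and is not used further. Of the markers of fibroblasts, LUM and THY1 had 0 counts and DCN at most 3, while FAP rose from 80.3 to 111 CPM. The leukocyte marker PTPRC had at most 4 counts, and CD68, which is also a lysosomal protein, rose from 70.3 to 114 CPM. The endothelial marker CDH5 had 0 counts, and KDR fell from 3.58 to 2.32 CPM. Of the 3 myofibroblast markers MYH11 was too low to test and both others fell, and their summed level was between 204 and 277 CPM in the control libraries and between 102 and 146 in the HG libraries. The part of these markers in the changes described below was not tested, and in bulk libraries fewer cells of a kind and less RNA per cell cannot be told apart.

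By FPKM, which is divided by transcript length and so allows genes to be compared, LOXL2 had the highest level of the 10 genes, at 146 ± 4.33 in the control group and 101 ± 4.33 in the HG group (SD, n = 5 each). PLOD2 followed at 83.7 ± 14.2 and LOX at 81.8 ± 10.6 in the control group, with ranges that overlap each other and do not reach LOXL2. PLOD3 (41.7 ± 2.77) and LOXL1 (41.3 ± 3.69) overlapped each other in turn. They were followed by PLOD1 (30.2 ± 2.15), P4HA1 (27.5 ± 2.10) and P4HA2 (26.1 ± 3.06), in which each range overlapped the next. LOXL3 at 0.978 ± 0.245 and LOXL4 at 0.595 ± 0.138 were far below the others. In the HG group the order was the same for the 4 highest, but LOXL1, at 28.0 ± 3.62, came after PLOD1 and P4HA1, whose ranges it overlapped.

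**Figure D2:**
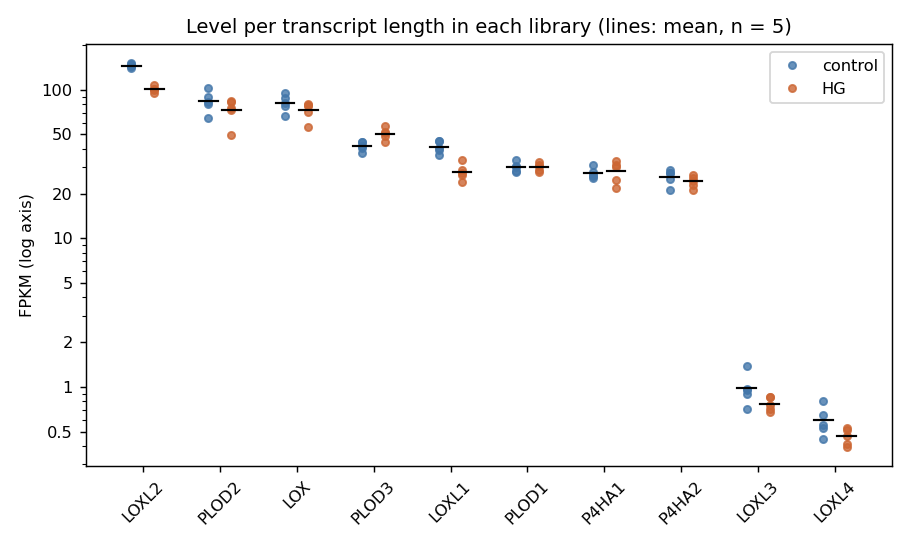
FPKM on a log axis for each gene, with a point for each library (blue control, orange HG, n = 5 each) and a line at the mean, ordered by the mean of the control group. LOXL2 is the highest in both groups and LOXL3 and LOXL4 lie near or below 1 FPKM.

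LOXL2 (ENSG00000134013) lies on chromosome 8 from 23297189 to 23425328 (GRCh38, minus strand) and encodes a secreted lysyl oxidase known to cross-link type IV collagen, the collagen of basement membranes. In the control libraries 1 to 5, LOXL2 was at 593, 619, 555, 569.6 and 568 CPM. In HG_1 to HG_5 it was at 444, 397, 394, 394 and 376 CPM. Every HG library lay below every control library, and HG_1 was the highest of its group. The log2 fold change was -0.53 (standard error 0.0515, 95% interval -0.65 to -0.42), a level 0.690 times that of the control group, with an adjusted p of 0.000131 in edgeR. A two-sided exact permutation test of the library values gave p = 0.00794, the smallest that 5 against 5 libraries allow. Between HG_1 and control replicate 2 the difference was -0.48 log2 units, and between the means of the other 4 and 4 libraries -0.55.

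LOXL1 (ENSG00000129038; chromosome 15 from 73925989 to 73952137, plus strand) encodes the lysyl oxidase best known for its part in the upkeep of elastic fibres. Its levels were 115, 117, 92.4, 100.5 and 103 CPM in the control libraries 1 to 5. They were 88.3, 66.2, 72.3, 59.5 and 69.3 CPM in HG_1 to HG_5. Again no HG library reached a control library, with HG_1 closest. The log2 fold change was -0.57 (standard error 0.104, 95% interval -0.80 to -0.34, adjusted p = 0.00402 in edgeR, exact permutation p = 0.00794). Without HG_1 it was -0.66, past the fold change of 1.5. Between HG_1 and control replicate 2 it was -0.41, and between the means of the other 8 libraries -0.62. The antisense gene LOXL1-AS1 shares 9.21% of the exon bases of LOXL1 and has no row of its own in the counts, and since the sources used here do not say whether strand was counted, its reads cannot be told apart from those of LOXL1. Groups that do not overlap, as for LOXL1 and LOXL2, were found in 13.6% of all rows tested, 6.91% lower and 6.74% higher in HG.

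LOX (ENSG00000113083, chromosome 5 from 122063195 to 122078360, minus strand), the founding member of the family, was at 493, 371, 407, 434 and 452 CPM in the control libraries 1 to 5. In HG_1 to HG_5 it was at 315, 407, 405, 414 and 373 CPM. The groups overlapped, and the lowest library of each was the one whose counts rise with GC content. The log2 fold change was -0.17 (95% interval -0.37 to 0.028, adjusted p = 0.246 in edgeR). After the correction for GC content and length it was -0.18 with an adjusted p of 0.00885 in edgeR, and without the pair of libraries -0.16 with an adjusted p of 0.0744, while with the correction applied and the pair left out it was -0.18 with an adjusted p of 0.0183. LOX thus passed in edgeR with the correction, whether or not the pair was kept, and its log2 fold change lay between -0.22 and -0.11 when 1 library was left out, the smallest without HG_1. Between HG_1 and control replicate 2 the difference was -0.24, and in the other 8 libraries -0.16.

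LOXL3 and LOXL4 were near the lower end of the rows tested, with 81 to 157 and 57 to 130 counts per library. LOXL3 had a log2 fold change of -0.30 (95% interval -0.70 to 0.10) and LOXL4 one of -0.36 (-0.78 to 0.055), and neither passed (adjusted p = 0.316 and 0.241 in edgeR). LOXL3 was 0.26 log2 units higher in HG_1 than in control replicate 2 and differed by -0.44 between the means of the other 8 libraries, so that its direction differed between the sets. For LOXL4 these differences were -0.27 and -0.39. Of the exon bases of LOXL3, 14.3% are shared with HTRA2 on the other strand. At this depth their intervals include the change seen in LOXL1 and LOXL2 as well as 0.

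**Figure D3:**
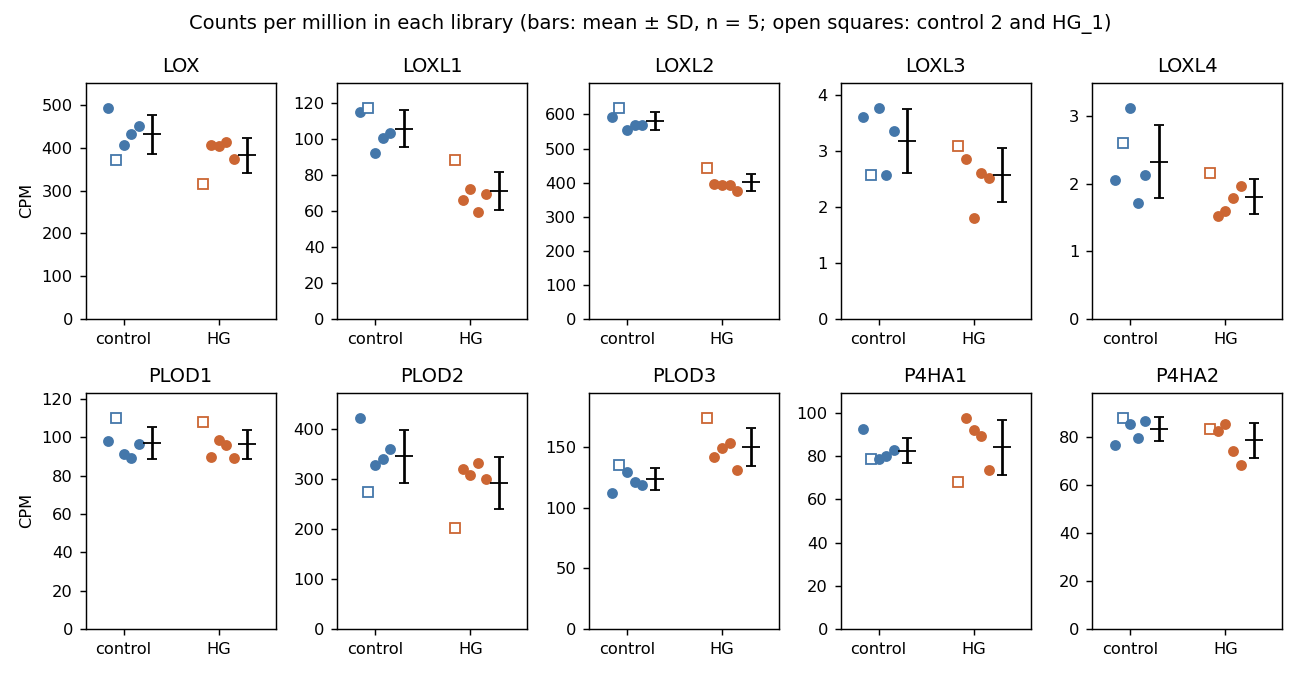
CPM of each gene in every library (vertical axis from 0 in each panel), with the mean and SD of each group of 5 as a bar and with control replicate 2 and HG_1 as open squares. LOXL1 and LOXL2 show no overlap between the groups, while LOX, PLOD2 and P4HA1 have their lowest HG library in HG_1.

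Added over the 5 genes, the FPKM of the lysyl oxidases was 270 ± 12.8 in the control group and 203 ± 6.20 in the HG group (SD, n = 5 each), with ranges of 257 to 291 and 195 to 209.6. LOXL2 made up 53.9% ± 2.24 of this sum in the control group and 49.8% ± 2.49 in the HG group. LOX made up 30.2% ± 2.91 and 35.8% ± 4.30, and LOXL1 15.3% ± 1.06 and 13.8% ± 1.99. Without control replicate 2 and HG_1 (n = 4 each) the sum was 272 ± 14.3 and 204 ± 6.52, and the shares were 53.1% ± 1.55 and 48.7% ± 0.484 for LOXL2, 31.4% ± 1.14 and 37.7% ± 1.00 for LOX, and 14.9% ± 0.545 and 13.0% ± 1.14 for LOXL1. LOXL3 and LOXL4 together stayed below 1% in every library.

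Of 3 ratios between genes of the same reaction, taken within each library from FPKM and so independent of library scaling, that of LOXL2 to LOX was 1.81 ± 0.270 in the control group and 1.42 ± 0.281 in the HG group (log2 difference -0.36, exact permutation p = 0.0476, 0.143 when adjusted over the 3 ratios). HG_1 had a ratio of 1.92 against 1.27 to 1.35 in the other HG libraries. Without HG_1 the log2 difference was -0.47 with an adjusted exact permutation p of 0.0238, the only 1 of the 10 fits without 1 library that passed, and the other 9 had adjusted exact permutation p between 0.119 and 0.286. Without control replicate 2 and HG_1 together it was -0.39, and the groups did not overlap (1.57 to 1.81 in the 4 control libraries and 1.27 to 1.35 in the 4 HG libraries). Its exact permutation p was then 0.0286 (0.0857 adjusted over the 3 ratios), the smallest that 4 against 4 libraries allow, so that the adjusted value could not pass with the p of the other 2 ratios above that limit. P4HA1 to P4HA2 was 1.07 ± 0.167 and 1.17 ± 0.197 (log2 difference 0.13, exact permutation p = 0.397), with a log2 difference of 0.16 without the pair (adjusted exact permutation p = 0.257). PLOD2 to PLOD1 was 2.79 ± 0.538 and 2.44 ± 0.538 (log2 difference -0.21, exact permutation p = 0.389, adjusted 0.397). Without the pair its log2 difference was -0.18 with overlapping groups (exact permutation p = 0.0571, adjusted 0.0857), and without HG_1 alone it was -0.046 (adjusted exact permutation p = 0.802).

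PLOD3 (ENSG00000106397; chromosome 7 from 101205977 to 101218420, minus strand) encodes the lysyl hydroxylase that also adds galactose and glucose to hydroxylysines, and is needed for type IV collagen. It was at 112, 136, 129.6, 122 and 119 CPM in the control libraries 1 to 5. In HG_1 to HG_5 it was at 174, 142, 149.7, 154 and 131 CPM. Of the HG libraries 4 lay above every control library, and HG_5 lay below control replicate 2 alone. The log2 fold change was 0.28 (standard error 0.0773, 95% interval 0.11 to 0.45), a level 1.21 times that of the control group (adjusted p = 0.0322 in edgeR, exact permutation p = 0.0159). The gene passed in the 13 other settings that were run, but in 6 of the 10 fits that left out 1 library it did not, with edgeR adjusted p between 0.0508 and 0.0801 (without control replicates 1, 3, 4 or 5, or without HG_3 or HG_4). Its log2 fold change stayed between 0.23 and 0.33 in those 10 fits. Without the pair of libraries that stood apart, all 4 HG libraries lay above all 4 control libraries, and the difference was 0.26 log2 units, against 0.36 between HG_1 and control replicate 2. How many of all rows separate in this way without the pair was not counted, so this separation cannot be set against a background. ZNHIT1, on the other strand, shares 7.57% of the exon bases of PLOD3 and had a difference of -0.12 on the log2 scale (adjusted p = 0.529 in edgeR).

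PLOD2 (ENSG00000152952; chromosome 3 from 146069440 to 146163653, minus strand), which hydroxylates the lysines at the ends of fibrillar collagen chains, was at 423, 275, 329.6, 341 and 360.4 CPM in the control libraries 1 to 5. It was at 203, 321, 309, 333 and 302 CPM in HG_1 to HG_5. HG_1 lay far below the other 4 HG libraries, and control replicate 2 was the lowest of the control group. The log2 fold change was -0.24 (95% interval -0.55 to 0.073, adjusted p = 0.310 in edgeR). It was -0.26 after the correction for GC content and length (adjusted p = 0.0158 in edgeR), and -0.20 without the pair of libraries (adjusted p = 0.0751 in edgeR). Between HG_1 and control replicate 2 the difference was -0.44. PLOD1 (ENSG00000083444; chromosome 1 from 11934205 to 11975538, plus strand), which hydroxylates lysines of the triple helix, ranged from 89.2 to 110.2 CPM in control libraries and from 89.4 to 108 in the HG group. Its log2 fold change was -0.010, with an interval from -0.17 to 0.15.

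The summed FPKM of the 3 lysyl hydroxylases was 156 ± 10.9 in the control group and 154 ± 10.9 in the HG group (SD, n = 5 each). PLOD3 made up 27.0% ± 3.53 of the sum in the control group and 33.1% ± 4.47 in the HG group, and PLOD2 53.5% ± 5.49 and 47.2% ± 6.57. The highest share of PLOD3 among the control libraries, 31.2%, lay above the lowest among the HG libraries, 30.4%. Without control replicate 2 and HG_1 (n = 4 each) the sum was 159 ± 9.00 and 158 ± 8.56, and PLOD3 made up 26.0% ± 3.04 and 31.1% ± 0.954 of it and PLOD2 55.6% ± 3.39 and 50.03% ± 1.65. The highest share of PLOD3 among these control libraries was then 29.01%, below the lowest of the HG libraries.

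P4HA1 (ENSG00000122884; chromosome 10 from 73007217 to 73096974, minus strand) was at 92.7, 78.8, 78.6, 80.1 and 83.1 CPM in the control libraries 1 to 5. In HG_1 to HG_5 it was at 68.2, 97.8, 92.3, 89.4 and 73.6 CPM. HG libraries thus lay both above and below the control group. Its log2 fold change was 0.028 (95% interval -0.19 to 0.25, adjusted p = 0.897 in edgeR), with a different sign between HG_1 and control replicate 2 (-0.21) and between the other 8 libraries (0.078). P4HA2 (ENSG00000072682; chromosome 5 from 132191838 to 132295315, minus strand) ranged from 76.7 to 88.0 CPM in control libraries and from 68.2 to 85.3 in the HG group, with a log2 fold change of -0.082 (95% interval -0.24 to 0.072, adjusted p = 0.503 in edgeR). The third alpha subunit, P4HA3, was at 1.34 ± 0.437 FPKM in the control group and 1.77 ± 0.374 in the HG group (log2 fold change 0.32, adjusted p = 0.463 in edgeR), and made up 2.46% ± 0.796 and 3.30% ± 0.814 of the summed FPKM of the 3 alpha subunits. P4HB, the beta subunit and also a protein disulfide isomerase, was 0.14 log2 units from the control level (adjusted p = 0.209 in edgeR).

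LOX, PLOD2 and P4HA1 have transcripts of low GC content (39.6%, 37.6% and 40.8% in the longest coding transcript), while those of the other 7 genes lie between 49.1% and 67.0%. In HG_1 these 3 genes deviated from the mean of their group by -0.28, -0.51 and -0.29 log2 units, and in control replicate 2 by -0.21, -0.32 and -0.066. LOXL1, with the highest GC content, deviated by 0.32 and 0.16 in the same libraries. For LOX and PLOD2 these were the lowest libraries of both groups. For P4HA1 HG_1 was the lowest of its group, but control replicate 3 was as low as control replicate 2 (-0.070), and HG_5, whose counts fall with GC content, was at -0.18. The part of the GC trend in this spread was not tested. After the correction for GC content and length, 5 of the 10 genes passed (LOX and PLOD2 besides LOXL1, LOXL2 and PLOD3), against 29.8% of the 13405 rows that could be corrected.

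**Figure D4:**
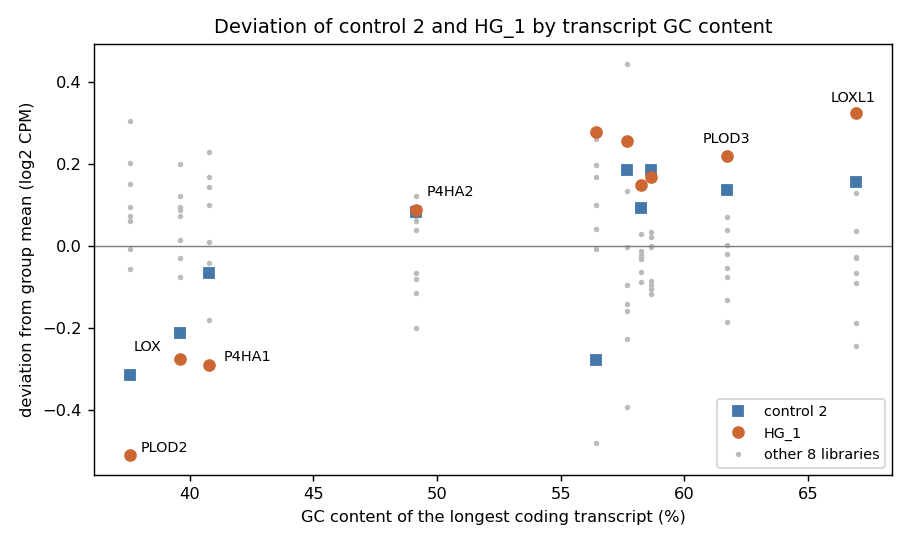
Deviation of each gene from the mean of its group (log2 CPM, vertical axis) against the GC content of its longest coding transcript (%), with blue squares for control replicate 2, orange circles for HG_1 and grey points for the other 8 libraries. In both named libraries LOX, PLOD2 and P4HA1 lie below 0, and LOXL1 and PLOD3 lie above it.

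Genes that hypoxia induces were counted because LOX, PLOD2 and P4HA1 are known to be among them. Of 18 such genes, all tested, 8 rose, 1 fell and 9 did not pass, with a median log2 fold change of 0.29, where 7.62% of all rows tested were higher and 7.80% lower. The 4 that changed most among those that passed were CA9, a carbonic anhydrase, at 1.07 (adjusted p = 0.00265 in edgeR), VEGFA, the angiogenic growth factor, at 0.87 (adjusted p = 6.97e-05 in edgeR), SLC2A1, the glucose transporter GLUT1, at -0.64 (adjusted p = 9.8e-05 in edgeR), and the mitophagy receptor BNIP3 at 0.58 (adjusted p = 0.00113 in edgeR). The log2 fold changes of the 3 enzymes themselves were -0.17, -0.24 and 0.028. After the correction for GC content and length they were -0.18, -0.26 and -0.018. LOX and PLOD2 then passed as lower (adjusted p = 0.00885 and 0.0158 in edgeR), where 29.8% of the rows that could be corrected passed.

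Sequences before the RefSeq start of the genes are shown for the core of the hypoxia response element. LOX, PLOD2 and P4HA1 were the reason, as known hypoxia-induced genes that did not pass the uncorrected test here. In the 250 bases before the RefSeq start (GRCh38.p14) of the 9 genes in the table used (all but LOXL2), ACGTG on either strand was found in 3, namely LOX, PLOD2 and P4HA1, and in 18.5% of all 35116 promoters of the same length. GCGTG was found in 4 of the 9 and in 32.2% of all promoters. The 25 bases around each ACGTG match are given on the strand of the gene, 5′ to 3′, with the match in capitals (CACGT is ACGTG on the other strand).
LOX, 117 bases before the start (chr5:122077277-122077301): tggcttctcgACGTGgctgcctggg
PLOD2, 200 bases before the start (chr3:146161370-146161394): tgagcctccaCACGTagccgcaggc
PLOD2, 146 bases before the start (chr3:146161316-146161340): aacagtccagACGTGgggcccagga
P4HA1, 86 bases before the start (chr10:73096938-73096962): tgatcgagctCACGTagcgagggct
PLOD2 has the most matches, 2 of ACGTG and 1 of GCGTG, and 0 of its 250 bases lie in an annotated exon, so the whole window is shown, with all matches to either core in capitals (chr3:146161185-146161434, minus strand).
PLOD2: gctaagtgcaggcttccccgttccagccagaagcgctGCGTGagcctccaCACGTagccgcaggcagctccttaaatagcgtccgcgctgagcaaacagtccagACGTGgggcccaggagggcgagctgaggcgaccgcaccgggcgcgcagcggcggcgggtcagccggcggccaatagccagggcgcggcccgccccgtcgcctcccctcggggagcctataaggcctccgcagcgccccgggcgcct
A match is a description of these letters and not a site bound in these cells. The windows of LOXL1, LOXL4, PLOD3 and P4HA2 hold neither core, and all 250 bases of those of LOXL1, PLOD3 and P4HA2 lie in annotated exons. The windows of LOX and P4HA1 have 119 and 108 bases in annotated exons. For LOX, PLOD2 and P4HA1 the RefSeq start used lies inside the gene coordinates given above. Every ACGTG match shown therefore lies within the annotated gene and not before its outermost start. How often this holds for the other promoters counted was not examined.

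Partners of the enzymes in collagen maturation were counted from a list of 23 genes, all tested, of which 6 fell, 3 rose and 14 did not pass (median log2 fold change -0.10), where 7.80% of all rows tested were lower and 7.62% higher. BMP1, the proteinase that removes the C-propeptide of procollagen and also processes the LOX precursor, had the largest change, from 273 ± 17.2 to 156 ± 17.4 CPM (SD, n = 5 each), a log2 fold change of -0.81 (adjusted p = 0.000123 in edgeR). P3H2, a prolyl 3-hydroxylase, fell by 0.70 log2 units from 42.5 ± 2.62 to 26.2 ± 2.46 CPM (adjusted p = 0.00019 in edgeR). ADAMTS2, the proteinase that removes the N-propeptide, fell by 0.44 (adjusted p = 0.00206 in edgeR). CREB3L1, a transcription factor that promotes collagen expression, rose by 0.60 log2 units, from 9.59 ± 0.559 to 14.6 ± 1.53 CPM (adjusted p = 0.00104 in edgeR). The others that passed were P3H1, COLGALT1 and the collagen chaperone SERPINH1, all lower, and CRTAP and PCOLCE2, both higher. P3H1 and CRTAP, which form 1 complex in the cell, thus differed in direction, at -0.32 and 0.29.

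Of 22 substrates (collagen chains and elastin), 16 were tested, of which 8 fell, 0 rose and 8 did not pass in edgeR, with a median log2 fold change of -0.44, against the same 7.80% lower and 7.62% higher of all rows. At an unadjusted p under 0.05, 2 substrates were higher and 10 lower (14.1% and 14.4% of all rows), and DESeq2 called 0 higher and 10 lower (9.64% and 10.2% of all rows). The largest changes were those of ELN (elastin) at -1.60, COL1A1 at -1.33, COL5A1 at -1.17 and COL4A1 at -1.01, with edgeR adjusted p of 0.019, 2.86e-05, 0.00132 and 0.000607. ELN rested on few reads, with a mean of 2.08 CPM in control libraries and 0.683 in the HG group. The fibrillar chains COL1A2 and COL3A1, which commonly accompany COL1A1, had at most 4 and 9 counts per library and were not tested.

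Of 12 matrix proteins that bind or guide lysyl oxidases, 9 were tested, 3 fell, 0 rose and 6 did not pass in edgeR (median -0.34), against 7.80% lower and 7.62% higher of all rows. At an unadjusted p under 0.05, and likewise in DESeq2, 1 was higher and 4 were lower, against the shares of all rows just given for the substrates. FBLN2 fell by 0.75 log2 units (adjusted p = 0.000443 in edgeR), FBN1 by 0.73 (adjusted p = 0.00361) and EFEMP2, which brings LOX to elastic fibres, by 0.39 (adjusted p = 0.0267). Of 10 genes that supply copper, ascorbate or iron, all tested, 2 rose, 0 fell and 8 did not pass in edgeR (median 0.077), against 7.62% higher and 7.80% lower of all rows. At an unadjusted p under 0.05, 5 were higher and 0 lower (14.1% and 14.4% of all rows), and DESeq2 called 4 higher and 0 lower (9.64% and 10.2%). The 2 were the iron importers TFRC at 0.53 (adjusted p = 0.00586 in edgeR) and SLC11A2 at 0.75 (adjusted p = 0.000684 in edgeR). Of the 5 copper transport genes, whose log2 fold changes lay between -0.18 and 0.16, the importer SLC31A1 had the upper value, from 57.5 ± 1.87 to 64.3 ± 3.93 CPM (SD, n = 5 each), with every HG library above every control library (adjusted p = 0.0597 in edgeR).

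**Figure D5:**
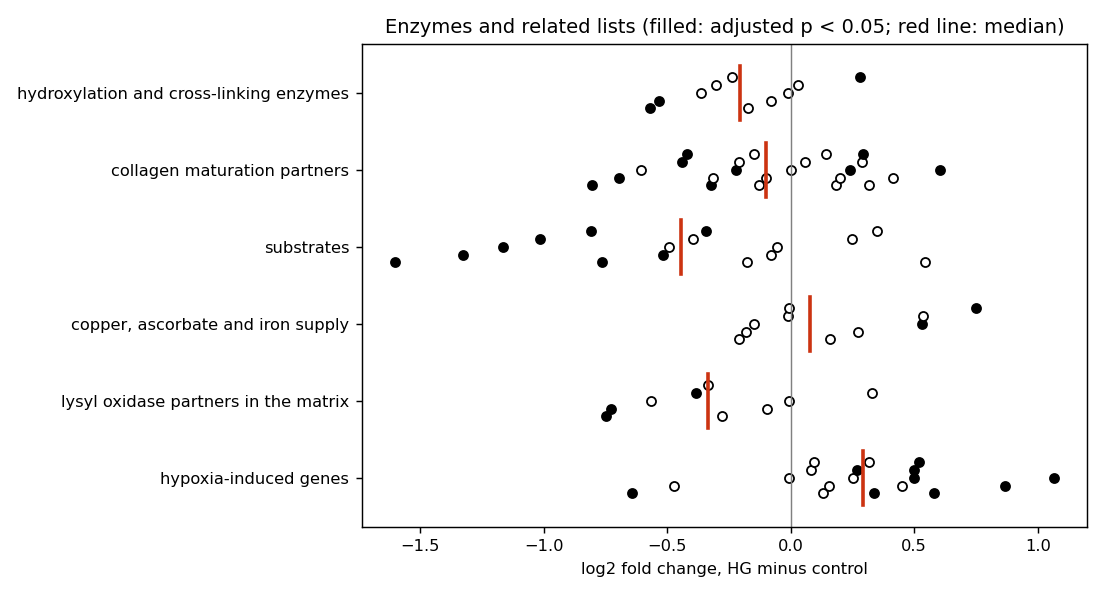
Log2 fold change (horizontal axis, HG minus control, edgeR) of every tested gene of the 10 enzymes and of the 5 related lists, with filled points for an adjusted p under 0.05, open points for the others and a red line at the median. The substrates lie furthest to the left and the hypoxia-induced genes furthest to the right.

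LOXL1 was the enzyme with the largest change by its estimate, but its interval overlaps that of LOXL2. Without HG_4 the log2 fold change was -0.51 for LOXL1 and -0.53 for LOXL2. Of the 12364 named genes with a mean of at least 1 CPM, those whose log2 CPM over the 10 libraries was most like that of LOXL1 were TGFB1I1, PDLIM7, TPM2, KRT18 and FAM43B, with Pearson correlations between 0.983 and 0.988. These were picked as the highest, and are given with no test. TGFB1I1 and PDLIM7 encode adaptor proteins of focal adhesions and the actin cytoskeleton, TPM2 a tropomyosin and KRT18 a keratin. Their log2 fold changes, whose direction the choice by likeness to LOXL1 fixed, lay between -0.76 and -0.52.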

How the data were processed

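RNA of ARPE-19 cells was sequenced in 5 control and 5 HG libraries. The authors deposited whole-number read counts per gene without normalization, and FPKM values, scaled by the authors to library size and to the length of the transcript. The submitters' processing notes name fastp 0.20.1, HISAT2 2.2.1 and GRCh38. The counting program, annotation and use of strand are not given in the sources used here. The control columns were matched to samples by title. The HG columns were matched by group only.

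Counts were compared with edgeR 4.0.16 in R 4.3.3 (default filter on low counts, TMM normalization, quasi-likelihood test, Benjamini-Hochberg adjustment over 14936 rows). Log2 CPM used a prior count of 2. Intervals of fold changes are at 95%. Within a group all 20 pairs of libraries differed by more than sampling noise (mean chi-square per row between 13.0 and 77.9). The steps were tested on simulated data. Alternatives were DESeq2 1.42.0, limma 3.58.1 on log2(FPKM + 1) and log2(FPKM + 0.1), sva 3.50.0, other normalizations and filters, and each library left out. The correction for GC content and length (lowess, span 0.3, GENCODE release 29) and the likelihood ratio test, and sums, shares and ratios without control replicate 2 and HG_1, were added after seeing the data. Control replicate 2 and HG_1 were themselves picked from these data, so every fit without them rests on a choice made from the same values. A count of 0 allows up to 3 counts, or 0.0669 to 0.0912 CPM. Such limits cover counting error only, while the intervals of fold changes include the spread between libraries.

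The genes, lists and tests were chosen with earlier results of these data known. Genes named with values are the 10 enzymes, up to 4 genes per list, taken by size of change from those that passed, TXNIP, and the 5 most like the enzyme with the largest change. P3H1, CRTAP, COLGALT1, SERPINH1, PCOLCE2, P4HA3, P4HB, SLC31A1, COL1A2, COL3A1, the overlapping genes and the cell type markers were named besides, some after their values were seen.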

Additional observations from a re-analysis of the deposited data

Results flagged for a closer look

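Among 28 groups of 5 values (CPM of the 10 enzymes, total counts and the 3 ratios, for control and HG separately), 2 had an extreme library, where chance gives about 1.4, or about 1 in 20. PLOD2 was at 203 CPM in HG_1 against 302 to 333 in the other HG libraries. The ratio of LOXL2 to LOX was 1.92 in HG_1 against 1.27 to 1.35. Both lie in HG_1, whose counts rise with GC content, and the part of that trend in them was not tested.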

How the results depend on the processing

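LOXL1 and LOXL2 kept their direction and passed in all 13 other settings and in all 10 fits that left out 1 library (log2 fold change between -0.66 and -0.51 and between -0.57 and -0.51 in the latter). PLOD3 passed in the 13 settings and in 4 of the 10 fits (0.23 to 0.33). LOX and PLOD2 passed in 3 settings: with 1 surrogate variable (-0.12 and -0.16), with the GC and length correction (-0.18 and -0.26) and with that correction and the pair of libraries left out (-0.18 and -0.24). In each of these 3, 5 enzymes passed, and 2 to 3 did when 1 library was left out. Enzymes with an unadjusted p under 0.05 numbered 3 in edgeR, and 5 without control replicate 2 and with the correction (pair kept or not). They numbered 6 with the surrogate variable and without the pair. The share of all rows at that limit was not counted in those settings. PLOD1 changed sign with library size alone (0.0017), with limma on log2(FPKM + 1) (0.0021, with or without a mean FPKM of at least 1), with limma on log2(FPKM + 0.1) (0.0022), with the correction (0.011), and with the correction and the pair left out (0.029), and ranged from -0.051 to 0.040 with 1 library left out. P4HA1 changed sign with the correction (-0.018) and ranged from -0.031 to 0.099 with 1 library left out. With 1 library left out, the log2 fold change ranged from -0.22 to -0.11 for LOX, -0.31 to -0.13 for PLOD2, -0.37 to -0.20 for LOXL3, -0.45 to -0.24 for LOXL4 and -0.11 to -0.035 for P4HA2. The log2 difference of the ratio ranged from -0.47 to -0.27 for LOXL2 to LOX, -0.33 to -0.046 for PLOD2 to PLOD1 and 0.057 to 0.22 for P4HA1 to P4HA2. Of all rows, 2303 had an adjusted p under 0.05, against 4923 with the surrogate variable, 4035 without the pair, 3989 with the correction, 4165 with the correction and no pair, and 1648 to 2993 with 1 library left out. The count past a fold change of 1.5 was 772, against 304 with limma on log2(FPKM + 1) and 285 with the FPKM minimum besides. Higher copper, ascorbate and iron genes numbered 2, against 4 in DESeq2, 5 with the surrogate variable, without the pair and with the correction (pair kept or not), and 2 to 5 with 1 library left out. Lysyl oxidase partners that were higher numbered 0, against 1 in DESeq2 and in the same 4 settings, and 0 to 1 with 1 library left out. Those that were lower numbered 3, against 5 with the surrogate variable, without the pair, and with the correction and no pair, and 2 to 4 with 1 library left out. Hypoxia-induced genes that were higher numbered 13 with the surrogate variable, against 8. With the correction, pair kept or not, higher maturation partners numbered 5, against 3, and higher substrates 1, against 0 (0 to 1 with 1 library left out). The cause was not tested. With limma on log2(FPKM + 1) the differences of LOXL3 and LOXL4, whose group means lie below 1 FPKM, were -0.15 and -0.12, against -0.30 and -0.36, and with log2(FPKM + 0.1) they were -0.29 for both. The mean FPKM minimum gave no value for LOXL3 and LOXL4. The correction, the likelihood ratio test and their combinations were chosen after seeing the data. No paired analysis was possible because the HG columns carry no number that the labels tie to a control sample.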
